A study of Mus musculus with 58 samples.

Results

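Castration was examined here in ASC1, the adipose stem cells without DPP4 on their surface. The 15 libraries comprised 8 labelled castrated male ASC1, in wells I2 to P2 of the plate, and 7 labelled control male ASC1, in wells B2 to H2. They were chosen by their labels alone, out of 58 libraries of sorted ASC in the series. The mice were C57BL/6J, males of the treated group were castrated at 4 weeks of age, and all were terminated at 10 weeks. The controls were age-matched and no other allele or agent is named for either group. Per the study's methods, animals for bulk RNA of sorted ASC were fasted for 4 hours before termination. Cells were taken from inguinal white adipose tissue (iWAT) by a sort for CD34 without CD45 and CD31, which keeps stromal cells and leaves out leukocytes and endothelium. Bulk RNA was measured by Smart-seq3, a protocol that sequences full-length cDNA. The study's methods describe the samples of a group as biological replicates, and the labels do not name the mouse behind each well.

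Adipose stem cells (ASC) are the PDGFRA-expressing stromal cells of fat. They give rise to adipocytes, and they also act as the resident fibroblasts of the tissue, which make collagens, proteoglycans, complement factors and growth factors. Cells with DPP4 (ASC2) are regarded as early progenitors, while ASC1 are regarded as closer to adipocytes. Castration removes testicular testosterone, a steroid hormone that changes the transcription of genes in its target cells. In female cells the RNA Xist silences one X chromosome, so Xist marks female cells, and genes such as Ddx3y mark cells with a Y chromosome.

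Several libraries went against their labels, and the names castrated and control are used for the labels throughout. All 8 castrated libraries held Xist, at 51.9 to 118 CPM (the usual scaling of a gene's reads by library size, here with TMM factors). The sum of the Y-chromosome genes Ddx3y, Eif2s3y, Kdm5d and Uty was at most 4.72 CPM in them. Of the control libraries, B2, C2 and D2 held no Xist read and 50.9 to 64.7 CPM of the Y genes, while E2, F2, G2 and H2 held 59.0 to 71.5 CPM of Xist and 4.36 to 15.5 CPM of the Y genes. The libraries also differed in Tcf21, a transcription factor gene of visceral stroma and mesothelium. It had 7 to 70 reads in castrated K2 to P2 and 7 to 17 in control B2 to D2, and no read in castrated I2 and J2 or control E2 to H2. Tbx15, a transcription factor gene of subcutaneous fat, was at 26.0 to 40.9 CPM in the 6 libraries without Tcf21 and at 0 to 7.99 CPM in the 9 libraries with it. The comparison was therefore also made within the libraries with Tcf21 reads, 6 castrated with Xist against 3 controls with Y genes, and within those without, 2 castrated against 4 controls that all held Xist. In the libraries with Tcf21, the label and the sex-chromosome content cannot be told apart. In those without, the Y genes were at 0 to 1.79 CPM in the castrated and 4.36 to 15.5 CPM in the control libraries. The label and this difference in the Y genes cannot be told apart there either. Total counts were 235098 to 865899 in the castrated and 406992 to 1275763 in the control group.

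**Figure D1:**
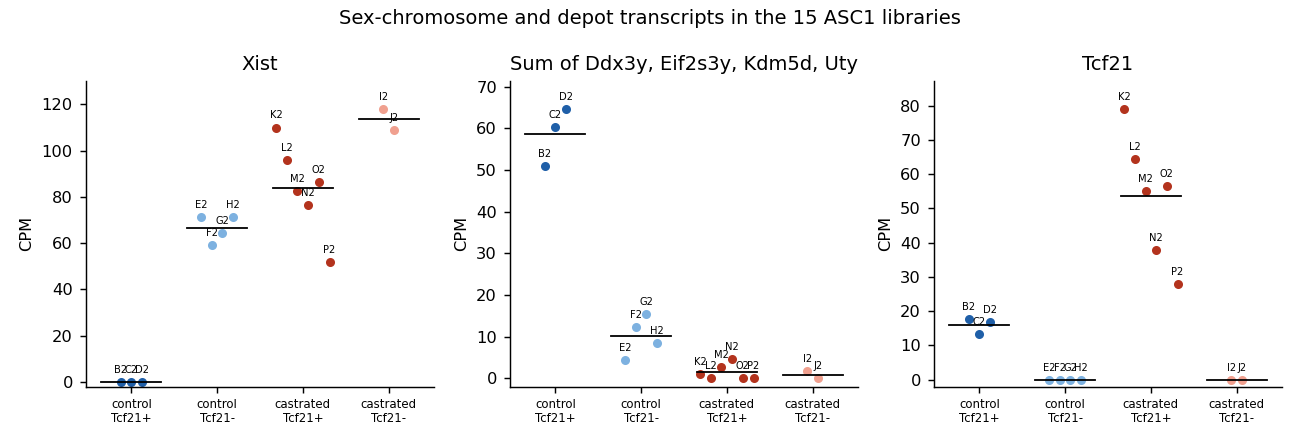
Each point is 1 of the 15 ASC1 libraries, named by its well, and the y axes give CPM of Xist, of 4 Y-chromosome genes summed and of Tcf21; black lines are means. All 8 castrated libraries and control E2 to H2 hold Xist, whereas B2 to D2 hold the Y genes, and Tcf21 is found in 6 castrated and 3 control libraries.

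The sort and the stromal identity were read from their genes. Pdgfra, the stromal receptor gene, was at 415 ± 28.7 CPM in the castrated (SD, n = 8) and 391 ± 33.9 CPM in the control group (n = 7), and Col1a1 was at 2430 ± 466 and 2190 ± 552 CPM. Not all stromal genes were alike: of 8 fibroblast genes tested, 2 were lower and none higher, with a median log2 fold change of -0.28. The 2 were Gsn and Dcn, and Dcn was at 1890 ± 282 and 3280 ± 459 CPM (adjusted p = 0.0388, edgeR). Both are described further on with Lum. Dpp4 had 26.2 ± 16.4 CPM in the castrated and 6.80 ± 5.56 CPM in the control libraries, beside 119 ± 54.3 CPM in castrated ASC2 (n = 8). It passed the test as higher in castrated ASC1 (log2 fold change 1.87 ± 0.48 SE, adjusted p = 0.0195, edgeR), but not without E2, L2 or M2 (adjusted p up to 0.0634) nor with limma voom (adjusted p = 0.197). Cd34 fell from 289 ± 56.1 to 75.0 ± 62.3 CPM, with 24.0 to 185 CPM in castrated and 199 to 346 CPM in control libraries (log2 fold change -1.91 ± 0.34 SE, adjusted p = 2.48e-04, edgeR). Its fall differed between the libraries with Tcf21 (-2.55 on the log2 scale) and those without (-0.86, adjusted p = 0.154, edgeR; difference adjusted p = 4.75e-04). Pecam1, the endothelial gene of the sort, was at 18.0 ± 6.21 and 24.9 ± 7.01 CPM (adjusted p = 0.651, edgeR).

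Of 12464 genes tested, 294 (2.36%) passed an adjusted p of 0.05 in the castration comparison. Of these, 132 (1.06% of genes tested) were higher and 162 (1.30%) were lower in the castrated libraries, and 1622 genes had an unadjusted p below 0.05. Changes were large: 74 of the higher and 69 of the lower genes differed by at least 4-fold. The ranges of the 8 and 7 libraries did not overlap for 13 of the higher and 38 of the lower genes, against 0.209% of all genes in the higher and 0.473% in the lower direction. The median log2 fold change over all genes was -0.01. The shares of 1.06% higher and 1.30% lower are the background for the counts of gene lists given below. In bulk RNA, fewer cells of a type and less RNA per cell cannot be told apart. The count fell to 182, 167 and 193 genes without C2, D2 or M2, and rose to 573 when the 15 libraries were fitted alone.

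Sult1e1, C7, Agt, Tdo2 and Il1r2 had the largest falls among called genes with a mean of at least 10 CPM in the controls whose ranges did not overlap. Sult1e1, the estrogen sulfotransferase that inactivates estrogens, had no read in any castrated library, while the controls lay between 22.7 and 133 CPM with a median of 35.7 CPM. With the castrated group set at 3 counts over its 8 libraries, it was at least 84.6-fold lower (adjusted p = 3.09e-07, edgeR). C7, a terminal component of complement, was at 0 to 14.4 CPM in the castrated libraries (median 0.590) and at 122 to 337 CPM in the controls (median 171). No library of either group came near the other range, and the log2 fold change was -6.09 ± 0.57 (SE, adjusted p = 2.18e-11, edgeR). Agt, which encodes angiotensinogen, the precursor of angiotensin II, was at 0 to 16.0 CPM in the castrated libraries (median 1.61) and at 43.4 to 110 CPM in the controls (median 53.2). Its log2 fold change was -4.51 ± 0.55 (SE, adjusted p = 1.03e-07, edgeR). Il1r2, the decoy receptor for interleukin 1, was at 0 to 16.2 CPM against 34.7 to 124 CPM (medians 6.87 and 68.1), with a log2 fold change of -3.47 ± 0.40 (SE, adjusted p = 2.60e-08, edgeR). These 4 genes separated the groups in every library, with or without Tcf21 reads, and for controls with Xist as for controls with the Y genes. Every castrated library held Xist, so no castrated ASC1 library with the Y genes could be compared.

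The promoters of the first 3 of these genes are shown to place them in the genome and to look for the half-site AGAACA (reverse complement TGTTCT), which steroid receptors such as those of progesterone and glucocorticoids bind. The sequences are RefSeq's, on build GRCm38.p6, each from 250 bases before to 50 after the start, and an exact TATAAA is in capitals.
Sult1e1, chr5:87591562-87591861, minus strand: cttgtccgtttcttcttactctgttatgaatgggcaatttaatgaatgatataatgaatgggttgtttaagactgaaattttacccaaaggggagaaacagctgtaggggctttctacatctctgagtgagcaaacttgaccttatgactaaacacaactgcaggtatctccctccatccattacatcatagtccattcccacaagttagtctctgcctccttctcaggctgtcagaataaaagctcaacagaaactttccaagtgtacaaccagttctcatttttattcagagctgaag
C7, chr15:5063724-5064023, minus strand: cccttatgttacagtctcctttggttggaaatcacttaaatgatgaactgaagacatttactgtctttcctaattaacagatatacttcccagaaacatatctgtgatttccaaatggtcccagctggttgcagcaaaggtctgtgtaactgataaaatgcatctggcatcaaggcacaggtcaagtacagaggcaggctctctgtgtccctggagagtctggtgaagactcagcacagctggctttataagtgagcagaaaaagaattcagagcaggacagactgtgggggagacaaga
Agt, chr8:124569657-124569956, minus strand: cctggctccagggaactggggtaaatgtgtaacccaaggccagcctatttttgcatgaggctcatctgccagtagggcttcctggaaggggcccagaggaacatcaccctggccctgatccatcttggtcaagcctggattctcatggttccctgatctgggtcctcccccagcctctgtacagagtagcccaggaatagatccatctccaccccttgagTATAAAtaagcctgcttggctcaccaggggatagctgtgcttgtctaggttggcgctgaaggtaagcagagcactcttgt
The half-site was on neither strand of these 3 windows. Over the first listed start of every gene, 19% of 27025 windows held it and 8.88% held TATAAA on the given strand.

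Clec3b, the gene of tetranectin, which binds plasminogen, was at 41.8 to 168 CPM in castrated and 197 to 940 CPM in control libraries (log2 fold change -2.34 ± 0.36 SE, adjusted p = 1.92e-05, edgeR). Penk, the proenkephalin gene, was at 10.2 to 41.3 CPM against 63.6 to 123 CPM (log2 fold change -2.23 ± 0.30 SE, adjusted p = 1.33e-06, edgeR). Both gene ranges were separate in all 15 libraries. Tdo2, tryptophan dioxygenase, the first enzyme of the kynurenine pathway, had reads in 1 castrated library (3.54 CPM in N2) and lay between 6.98 and 20 CPM in the controls (log2 fold change -4.09 ± 0.70 SE, adjusted p = 1.52e-04, edgeR). Scara5, a ferritin receptor, fell from 72.0 ± 38.6 to 13.9 ± 7.22 CPM (adjusted p = 3.05e-04, edgeR), and Serpina3c, a serine protease inhibitor, from 25.4 ± 10.3 to 5.37 ± 4.5 CPM (adjusted p = 3.14e-04, edgeR). Vit, which encodes the matrix protein vitrin, fell from 39.6 ± 16.9 to 7.43 ± 5.30 CPM, and Trarg1, a regulator of GLUT4 trafficking, from 30.0 ± 16.4 to 4.37 ± 2.03 CPM (adjusted p = 2.11e-05 and 0.00538, edgeR). Glt8d2, a glycosyltransferase family gene, was at 0 to 3.33 CPM in castrated and 6.10 to 17.8 CPM in control libraries (adjusted p = 8.32e-04, edgeR).

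**Figure D2:**
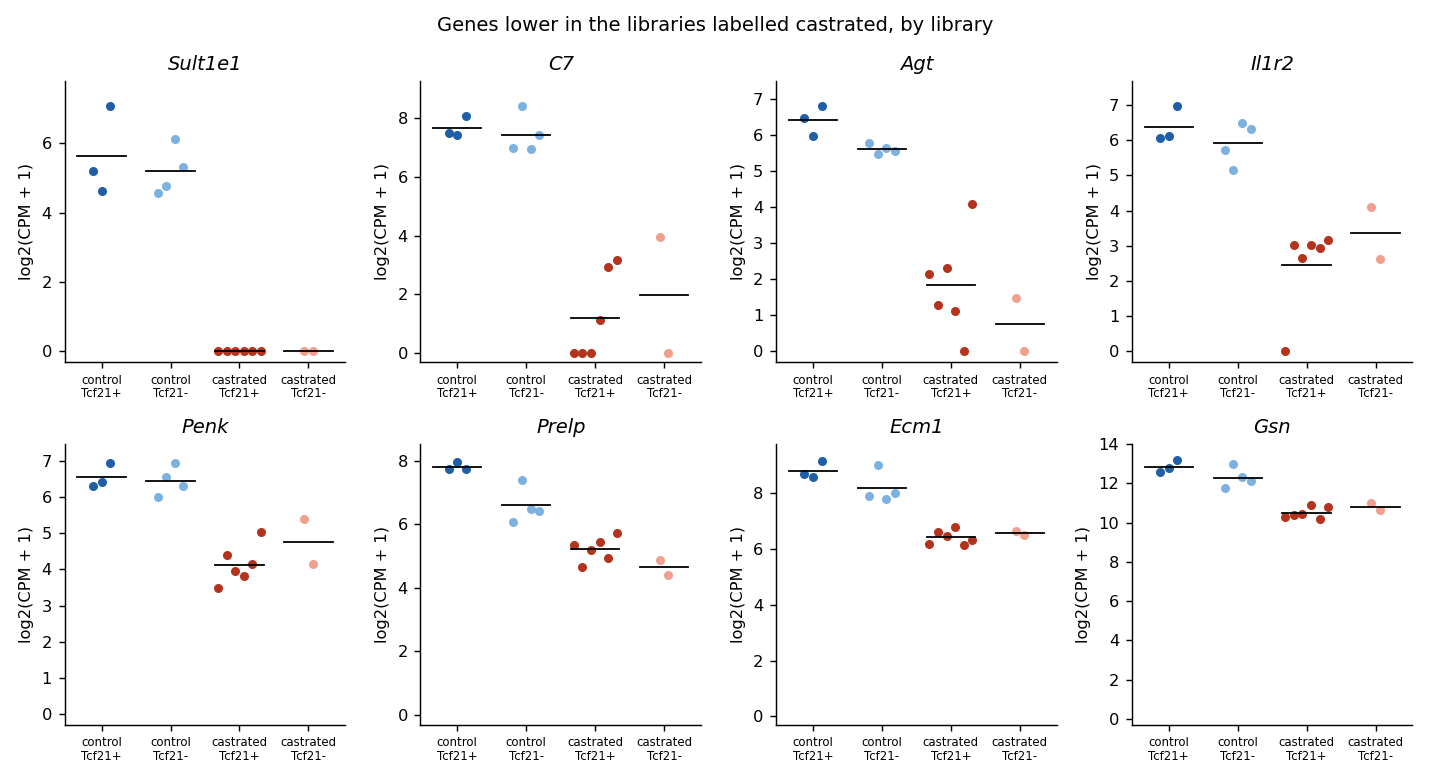
Points are single libraries, the y axes give log2(CPM + 1) of 8 genes, and black lines are means; libraries are grouped by label and by the presence of Tcf21 reads. For all 8 genes each castrated library lies below each control library, in the libraries with and without Tcf21 alike.

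Complement and matrix genes were among those that fell. Of 21 complement genes tested, 6 were lower (1.30% of all genes) and none higher (1.06% of all genes). Their median log2 fold change was -0.94 against -0.01 over all genes. Some of the 6 were high in the 3 control libraries B2 to D2, in which the macrophage genes described further on were also high (5290 to 6450 CPM in sum, against 578 to 949 CPM in the other 12 libraries), and the part of macrophage RNA was not tested. Cfp (properdin) was at 132 to 179 CPM in B2 to D2, 20 to 31.4 CPM in E2 to H2 and 13.3 to 30.5 CPM in castrated libraries, and its call was lost with limma voom (adjusted p = 0.0729). C3ar1, the C3a receptor gene, was at 117 to 171, 15.5 to 39.9 and 18.9 to 36.6 CPM in the same order. The call for Cfd (adipsin) was lost without any one of B2, C2, D2, G2, I2, J2, L2, M2, O2 or P2 (adjusted p up to 0.109, edgeR). C4b, a subunit of the classical pathway, fell from 269 ± 58.6 to 84.0 ± 13.7 CPM without overlap (adjusted p = 0.00120, edgeR), and Vtn (vitronectin, an inhibitor of the terminal complex) from 22.1 ± 11.6 to 5.75 ± 4.84 CPM (adjusted p = 0.0101, edgeR). C3, the central component, was at 151 ± 82.3 and 285 ± 153 CPM (adjusted p = 0.446, edgeR), and Cfb at 67.0 ± 25.6 and 118 ± 36.1 CPM (adjusted p = 0.279, edgeR). Of 11 small leucine-rich proteoglycans, which bind collagen fibrils, 4 were lower and none higher, with a median of -0.79. Prelp fell from 154 ± 73.1 to 34.1 ± 10.3 CPM (adjusted p = 7.14e-04, edgeR). Dcn (decorin) was at 1890 ± 282 against 3280 ± 459 CPM without overlap (log2 fold change -0.79 ± 0.22 SE, adjusted p = 0.0388, edgeR), a call that was lost without any one of C2, D2, F2, G2, I2, J2, K2, L2, M2 or O2 (adjusted p up to 0.109). Lum was at 425 ± 133 and 665 ± 206 CPM (adjusted p = 0.160, edgeR) and Bgn at 4420 and 4490 CPM. The matrix protein gene Ecm1 fell from 373 ± 139 to 87.8 ± 13.7 CPM (adjusted p = 1.95e-06, edgeR), and Gsn, the actin-severing protein gelsolin, from 6280 ± 2120 to 1550 ± 335 CPM (adjusted p = 1.18e-05, edgeR). Of 27 collagen genes, 1 was higher and none lower, with a median of -0.07.

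Genes linked to sex hormones did not move as one block. The list of genes enriched in male ASC held 25 tested members, of which 9 were lower and none higher, with a median of -0.94. It was taken from the study and includes the Y-linked Ddx3y and Eif2s3y beside Sult1e1, C7, Agt and Prelp. Of 13 tested genes enriched in female ASC, 3 were higher and none lower, with a median of 1.26. That median was 2.14 in the libraries with Tcf21 and -0.11 in those without. Of 39 androgen response genes, 3 were lower and 1 was higher, with a median of 0.05. The 3 were Steap4, a metalloreductase, from 129 ± 36.5 to 35.8 ± 18.8 CPM (adjusted p = 1.96e-04, edgeR), Aldh1a3, a retinaldehyde dehydrogenase, from 20.5 ± 11.4 to 4.83 ± 4.07 CPM (adjusted p = 0.00478, edgeR; 0.051 with limma voom), and Hpgd, which degrades prostaglandins, from 25.1 ± 15.6 to 6.54 ± 2.71 CPM (adjusted p = 0.0232, edgeR). The call for Hpgd was lost without B2, D2 or L2 (adjusted p up to 0.1) and with limma voom (adjusted p = 0.236). Fkbp5, a well-known androgen and glucocorticoid target, was at 42.0 and 66.9 CPM (log2 fold change -0.66). The receptor genes Esr1 (16.9 ± 8.59 and 13.2 ± 5.25 CPM) and Nr3c1 (70.3 ± 19.1 and 58.5 ± 17.7 CPM) did not pass the test (adjusted p = 0.799 and 0.713, edgeR). Of 14 estrogen response genes, none passed in either direction. Of 13 renin-angiotensin genes, Agt alone passed, and the median of the list was -0.54.

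Among regulators of growth, 3 of 42 tested TGF-beta and BMP pathway genes were lower and none higher, with a median of 0.24. Gdf10 (BMP3B), also a marker of ASC1, fell from 56.8 ± 29.2 to 15.6 ± 6.72 CPM (log2 fold change -1.93 ± 0.30 SE, adjusted p = 1.92e-05, edgeR). Of 18 ASC1 markers tested, 3 were lower and none higher, with a median of -0.21. Their sum was 7240 to 7880 CPM in K2 to P2 and 2290 to 2440 CPM in I2 and J2. In the controls it was 5060 to 6160 CPM in B2 to D2 and 2120 to 2500 CPM in E2 to H2. Id2, a target of BMP signalling that blocks helix-loop-helix factors, fell from 67.6 ± 15 to 27.8 ± 9.19 CPM without overlap (adjusted p = 0.0143, edgeR). Fos, an immediate early transcription factor gene, fell from 179 ± 67.2 to 44.5 ± 24.1 CPM, also without overlap (adjusted p = 2.80e-04, edgeR). Of the other 30 immediate early and stress genes tested, 1 was higher and none lower. Ifi27, an interferon-induced gene, fell from 269 ± 37.6 to 121 ± 30.7 CPM (log2 fold change -1.16 ± 0.16 SE, adjusted p = 1.33e-06, edgeR), while the other 31 interferon response genes tested did not pass. Of 75 oxidative phosphorylation genes 1 was lower, and of 28 glycolysis and hypoxia genes and 36 cell cycle genes none passed in either direction. Still, 34 of the 36 cell cycle genes were negative (median -0.43), and 25 of the 28 glycolysis and hypoxia genes positive (median 0.34). Over all 12464 genes tested, 6355 were negative and 6099 positive. In the libraries with Tcf21, 14 cell cycle genes were lower (6.96% of all genes) and 14 glycolysis and hypoxia genes higher (5.60% of all genes, edgeR). In those without, none of either list passed.

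Ctla2a, a cysteine protease inhibitor gene, was at 34.1 to 1440 CPM in castrated libraries (median 1210) and at 13.9 to 46.6 CPM in the controls (median 35.6). The difference passed the test (log2 fold change 4.97 ± 0.81 SE, adjusted p = 6.87e-05, edgeR). The high values were those of K2 to P2, at 1180 to 1440 CPM, whereas I2 and J2, at 34.1 and 44.7 CPM, lay within the control range. Ngfr, the p75 neurotrophin receptor gene, was at 315 to 567 CPM in K2 to P2, 57.4 and 57.5 CPM in I2 and J2, 32.3 to 48.6 CPM in control E2 to H2 and 0 to 0.995 CPM in control B2 to D2 (adjusted p = 0.00652, edgeR). Frzb, a secreted Wnt inhibitor, was at 208 to 310 CPM in K2 to P2 and at 3.83 and 7.18 CPM in I2 and J2, against 4.36 to 25.9 CPM in the controls (adjusted p = 0.00653, edgeR; 0.159 with limma voom). Akr1c14, which reduces dihydrotestosterone and other 3-ketosteroids, was at 30.0 to 65.5 CPM in K2 to P2, 10.8 and 11.5 CPM in I2 and J2, and 0 to 11.4 CPM in the controls (adjusted p = 3.13e-04, edgeR). In each of these genes the castrated libraries fell into a high set of 6 and a low set of 2.

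**Figure D3:**
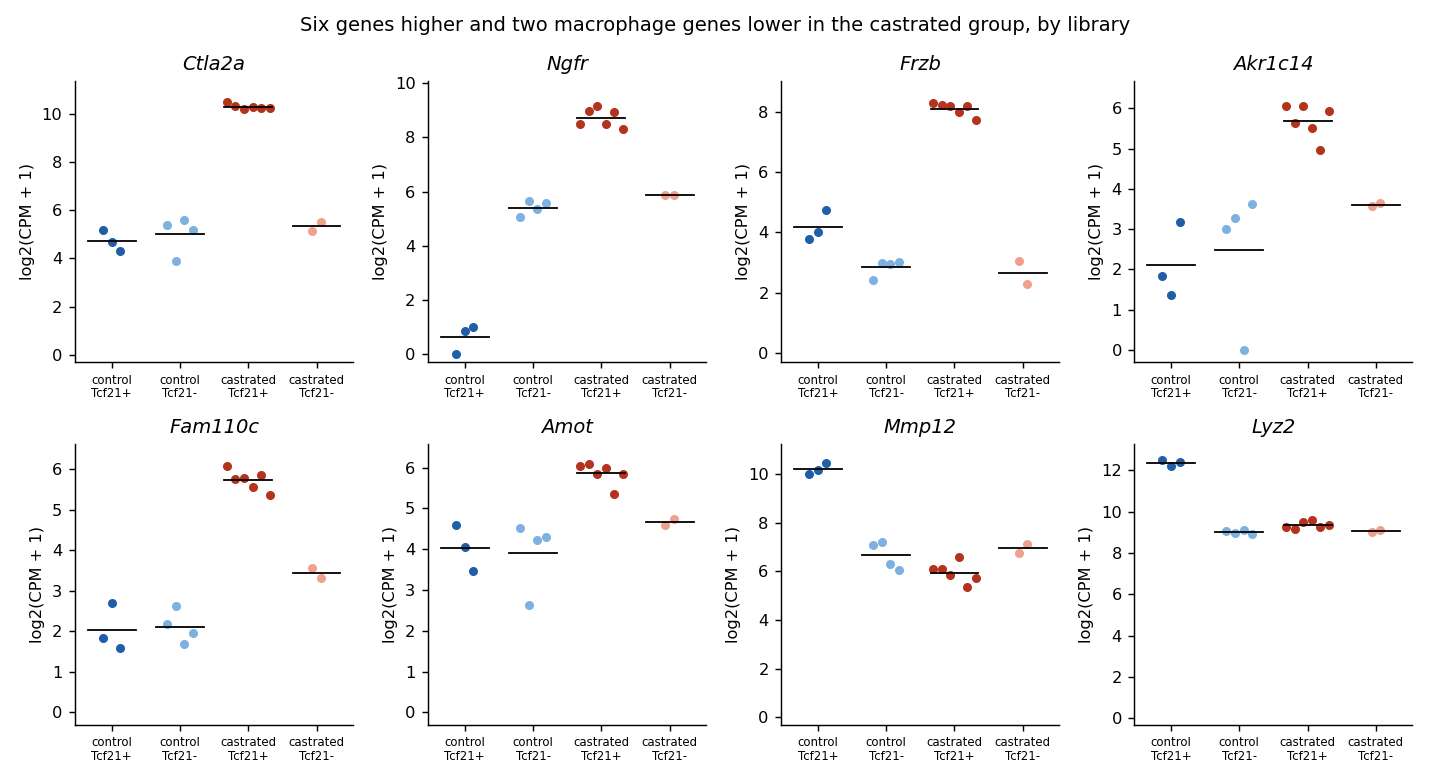
Points are single libraries, the y axes give log2(CPM + 1), black lines are means, and libraries are grouped by label and by Tcf21 reads. Ctla2a, Ngfr, Frzb, Akr1c14, Fam110c and Amot are highest in the 6 castrated libraries with Tcf21, and the macrophage genes Mmp12 and Lyz2 are highest in the 3 control libraries with Tcf21.

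The genes of K2 to P2 were also found in other groups of the series. Outside male ASC1, 6 libraries held both at least 5 reads of Tcf21 and at least 20 CPM of Xist, 2 labelled control female ASC2 and 4 labelled ovariectomized female ASC2. They held 790 to 1110 CPM of Ctla2a, 303 to 612 CPM of Ngfr and 218 to 353 CPM of Frzb. In the 17 other libraries with Xist and without Tcf21, Ctla2a was at most 99.0, Ngfr at most 38.2 and Frzb at most 17.1 CPM. In the 7 other libraries with Tcf21 and without Xist, the highest values of Ctla2a, Ngfr and Frzb were 99.2, 10.9 and 62.3 CPM. The 13 other libraries below both thresholds reached 597 CPM of Ctla2a, 249 CPM of Ngfr and 151 CPM of Frzb, with medians of 47.9, 14.1 and 3.89 CPM. Being below the thresholds does not mean that reads were absent. Among the 13, control female ASC1 A4 had only 139822 reads in total, of which 2 were of Tcf21 and 2 of Xist (13.1 CPM each). The ranges of Ngfr and Frzb in K2 to P2 thus overlapped those of 6 libraries that are not labelled castrated, while Ctla2a was lower in these 6. Genes lower in the castrated group were mixed in these 6. Sult1e1 had no read, and C7 was at 0 to 10.9, Agt at 0.927 to 6.79 and Penk at 9.88 to 25.6 CPM. Such low levels were thus not confined to the castrated label. By contrast, Il1r2 (21.4 to 170 CPM) and Clec3b (198 to 1490 CPM) lay above their ranges in K2 to P2.

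Some genes of position and of mesothelium were higher in the castrated libraries. Of 8 tested Hox genes numbered 9 to 13, which mark the posterior body axis, 3 were higher and none lower. Hoxd10 and Hoxd11 had no read in any control library, and with the controls set at 3 counts over the group they were at least 16-fold and 14.2-fold higher (adjusted p = 0.00120 and 0.0115, edgeR; both adjusted p-values were not given by DESeq2). Their reads lay in K2 to P2, at 6.66 to 15.7 CPM of Hoxd10 and 3.99 to 11.8 CPM of Hoxd11. Castrated I2 and J2 held at most 1.28 CPM of Hoxd10 and no read of Hoxd11. The third, Hoxa11os, was lost without C2 or D2 (adjusted p up to 0.0604, edgeR). Summed over the list, the Hox genes were at 71.9 to 120 CPM in K2 to P2 and 81.7 to 84.4 CPM in I2 and J2. The sum was 62.2 to 88.1 CPM in control E2 to H2 and 7.64 to 23.5 CPM in control B2 to D2. The libraries low in the sum were thus these 3 controls, unlike for Hoxd10 and Hoxd11. Of 4 mesothelium genes, 3 were higher. Msln (mesothelin) was at 13.2 ± 11.1 against 0.348 ± 0.627 CPM (adjusted p = 0.00365, edgeR), while the calls for Upk3b and Lrrn4 were lost with DESeq2 (adjusted p = 0.239 and 0.184). They were also lost when a single library was left out, any but C2, I2 and J2 for Upk3b (adjusted p up to 0.109, edgeR) and any of B2, D2 to H2, L2, M2 and O2 for Lrrn4 (adjusted p up to 0.103, edgeR). Summed over Msln, Upk3b, Lrrn4 and Wt1, the level was 67.9 to 146 CPM in K2 to P2, 15.9 to 39.1 CPM in control B2 to D2 and at most 2.55 CPM in the other libraries of male ASC1. The part of mesothelial RNA in the higher genes was not tested.

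Few higher genes separated the groups in all libraries. Amot (angiomotin, a regulator of YAP) was at 23.3 to 67.4 CPM in castrated and 5.21 to 22.9 CPM in control libraries (log2 fold change 1.64 ± 0.33 SE, adjusted p = 0.00128, edgeR). Emx2os, an antisense RNA at Emx2, was at 11.5 to 28.8 CPM against 1.99 to 7.11 CPM (log2 fold change 2.27 ± 0.45 SE, adjusted p = 0.00128, edgeR); strand was not stated for the counting. Fam110c was at 8.94 to 66.7 CPM against 1.99 to 5.48 CPM (log2 fold change 3.50 ± 0.67 SE, adjusted p = 8.32e-04, edgeR). Map2k1, the kinase MEK1, was at 85.6 to 155 CPM against 26.7 to 72.4 CPM (log2 fold change 1.03 ± 0.26 SE, adjusted p = 0.0160, edgeR). Gm48874 had no control read and was at 1.28 to 31.9 CPM in castrated libraries, at least 30.2-fold higher (adjusted p = 0.00278, edgeR). It was at 9.99 to 31.9 CPM in K2 to P2 but only 1.28 to 1.79 CPM in I2 and J2. The 6 libraries outside male ASC1 with both Tcf21 and Xist held 23 to 42.1 CPM of it.

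Macrophage genes were lower in the castrated group, through 3 control libraries. Of 8 macrophage genes tested, Lyz2, Cd68, Adgre1 and Ptprc were lower, and the median of the list was -1.59. The call for Cd68 was lost without B2, C2 or D2 (adjusted p up to 0.108, edgeR) and with limma voom (adjusted p = 0.325), and that for Adgre1 without D2 (adjusted p = 0.0925, edgeR) and with limma voom (adjusted p = 0.329). The summed level of the 9 listed genes was 5290 to 6450 CPM in control B2 to D2, 578 to 711 CPM in control E2 to H2 and 641 to 949 CPM in the castrated libraries. Lyz2 (lysozyme) was at 478 to 5660 CPM in the controls and 519 to 759 CPM in castrated libraries (adjusted p = 0.00175, edgeR; 0.144 with limma voom). Mmp12, the macrophage elastase, reached 1030 to 1400 CPM in B2 to D2 and was at 65.4 to 146 CPM in E2 to H2, beside 39.9 to 139 CPM in castrated libraries. Cd36, a fatty acid receptor that macrophages also express, and Trf (transferrin) had control medians of 57.5 and 51.4 CPM but maxima of 460 and 807 CPM, against 20 to 56.2 and 22.4 to 46.7 CPM in castrated libraries. Ptprc, the CD45 gene that the sort selects against, was at 2.22 to 41.8 CPM in the controls and 0 to 5.90 CPM in castrated libraries (adjusted p = 0.0241, edgeR), a call lost without B2, D2, K2 or L2 (adjusted p up to 0.241). Of the chemokine genes tested, 5 of 23 were lower, among them the macrophage-expressed Ccl6 and Ccl9. The call for Ccl6 was lost without B2, C2 or D2 (adjusted p up to 0.108, edgeR), and that for Ccl9 without any one of these or of K2 to P2 (adjusted p up to 0.154, edgeR). The part of macrophage RNA in the lower genes was not tested. None of the 9 endothelial, 9 mural, 3 lymphatic, 2 mast cell or 7 mammary epithelium genes tested passed in either direction. Sums still differed between libraries. Mural genes were at 2210 to 2560 CPM in K2 to P2, 734 to 985 CPM in I2 and J2, 1290 to 1360 CPM in B2 to D2 and 864 to 1170 CPM in E2 to H2. Mammary epithelium genes were at 66.7 to 146, 47.2 to 129, 13.9 to 24.3 and 147 to 271 CPM in the same order.

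Within the libraries with Tcf21, 698 genes (5.60%) were higher and 868 (6.96%) lower in the castrated group. Within the libraries without Tcf21, 2 genes (0.0160%) were higher and 26 (0.209%) lower (edgeR, one fit of the 15 libraries with 4 subsets, with 2 castrated libraries in the latter comparison). Of the 132 genes higher in the comparison of all libraries, 130 were also higher with Tcf21 and none without, and 43 had a difference between both kinds of library that passed the test itself. Of the 162 lower genes, 160 were lower with Tcf21 and 17 without, and 50 had such a difference. The median log2 fold change of the 132 higher genes was 2.29 with and 0.21 without Tcf21, and that of the 162 lower genes was -2.56 and -0.76. The direction was the same without Tcf21 for 85 of the higher and 139 of the lower genes.

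**Figure D4:**
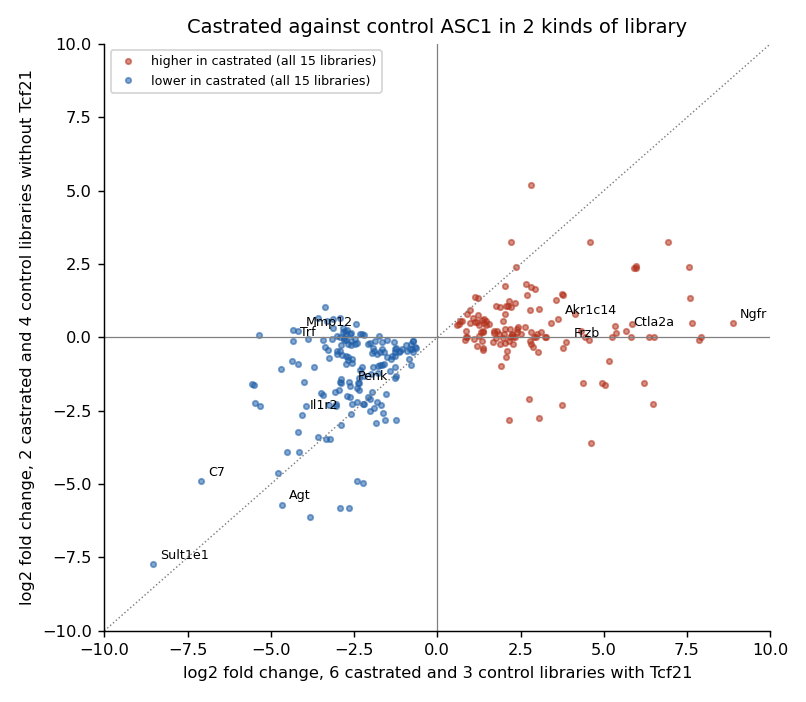
Each point is 1 of the 294 genes that passed the test in all 15 libraries. The x axis gives its log2 fold change in libraries with Tcf21 (6 castrated, 3 control), the y axis that in libraries without (2 castrated, 4 control), and the dotted line marks equal values. Higher genes (red) such as Ngfr and Ctla2a lie near 0 on the y axis, as do the macrophage gene Mmp12 and Trf among the lower genes (blue), whereas Sult1e1, C7, Agt and Il1r2 are low on both axes.

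The difference between the kinds of library was itself tested and passed for 346 genes (2.78%). The effect on Ctla2a was 5.67 on the log2 scale with Tcf21 and 0.21 without (adjusted p of the difference = 2.65e-12, edgeR), and that on Ngfr 8.88 and 0.48 (1.74e-12). For Mmp12 the effects were -4.18 and 0.22 (adjusted p of the difference = 2.16e-11, edgeR), and for Lyz2 -3.02 and 0.04 (3.02e-13). For C7 they were -7.09 and -4.90, for Agt -4.66 and -5.70 and for Il1r2 -4.06 and -2.63, and these differences did not pass (adjusted p = 0.433, 0.788 and 0.401, edgeR). Clu, a complement regulator chosen after its values were seen, went both ways. It was at 156 to 216 CPM in castrated K2 to P2 against 11.7 to 25.5 CPM in control B2 to D2, and at 6.38 and 32.3 CPM in castrated J2 and I2 against 38.4 to 94.2 CPM in control E2 to H2.

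In both kinds of library, 21 genes passed the test as lower in the castrated group (0.168% of genes tested) and 0 as higher. Without Tcf21, 762 genes had an unadjusted p below 0.05. The 21 genes, chosen after their values were seen, included Sult1e1, C7, Agt, Il1r2, Prelp, Inmt, Penk, Slco2b1, Ecm1, Chrdl1, Entpd2, Gsn, Steap4, C3, Gas6, C4b, Dpep1, Cfb, Selenop and Dcn. C3, Gas6, Cfb and Selenop had not passed in the comparison of all 15 libraries. C3 had an effect of -1.24 on the log2 scale with Tcf21 (adjusted p = 1.06e-05, edgeR) and of -2.35 without (adjusted p = 8.26e-05, edgeR). Levels of C3 differed between the kinds of library, so that its ranges of 24.3 to 252 CPM in castrated and 105 to 504 CPM in control libraries overlapped. Inmt, an amine methyltransferase, was at 33.2 to 300 against 248 to 621 CPM, with effects of -2.02 and -2.51 (adjusted p = 7.46e-06 and 0.00329, edgeR). Entpd2, an enzyme that cleaves extracellular ATP, was at 16.6 to 67.3 against 96.7 to 181 CPM, and Dpep1, a membrane dipeptidase, at 158 to 315 against 346 to 646 CPM, with effects without Tcf21 of -2.21 and -1.37 (adjusted p = 3.04e-04 and 1.84e-04, edgeR). Chrdl1, an antagonist of BMPs, had effects of -1.23 and -2.82 (adjusted p = 0.0223 and 0.0241, edgeR). In the list of complement genes, 13 of 21 were lower with Tcf21 and 6 without. In RefSeq's promoters, 15 of the 21 genes had an entry, none of the 15 held the half-site AGAACA or TGTTCT in the window of the first listed start, and 4 held TATAAA.

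The response was compared with that of ASC2, the DPP4-positive cells, in 8 castrated and 8 control libraries. There, 868 genes passed, 330 (2.65%) higher and 538 (4.32%) lower. All 8 castrated ASC2 libraries held at least 20 CPM of the Y genes and none held 20 CPM of Xist, the reverse of castrated ASC1, so the cell population and the sex-chromosome content cannot be told apart here. Of the 8 control ASC2 libraries, 4 held at least 20 CPM of Xist and 7 at least 20 CPM of the Y genes. Tcf21 had at least 5 reads in 2 castrated and no control ASC2 libraries, so the effect in ASC2 is also mixed with these differences. The castration effect differed between ASC2 and ASC1 for 301 genes (2.41%, edgeR). The effect in ASC2 minus that in ASC1 was positive for 191 (1.53%) and negative for 110 (0.883%) of them. Agt was at 22.0 ± 14.6 CPM in castrated and 10.5 ± 6.56 CPM in control ASC2 (log2 fold change 1.09, adjusted p = 0.13, edgeR), and the effects differed by 5.60 ± 0.72 log2 units (SE, adjusted p = 1.43e-06). Penk had an effect of -0.37 in ASC2 (adjusted p = 0.460, edgeR) and differed by 1.86 (adjusted p = 0.00470). Ifi27 had an effect of 0.36 in ASC2 and differed by 1.52 (adjusted p = 1.24e-05, edgeR). In both populations, Sult1e1 had no castrated read, C7 fell by 7.92 in ASC2 on the log2 scale (adjusted p = 3.37e-16, edgeR) and Il1r2 fell by 3.09 (adjusted p = 1.00e-10, edgeR). The differences between populations for C7 and Il1r2 did not pass (-1.83 and 0.38, adjusted p = 0.408 and 0.767, edgeR). Tdo2 fell by 6.19 in ASC2 (adjusted p = 1.07e-08, edgeR) and Gdf10 fell by 2.86 (adjusted p = 7.39e-07, edgeR), and their differences between populations did not pass (adjusted p = 0.448 and 0.368, edgeR). Of 28 glycolysis and hypoxia genes, 12 were higher in ASC2 and none in ASC1, and of 32 interferon response genes 13 were lower in ASC2 and 1 in ASC1. The effects differed by the test itself for 0 of the former and 4 of the latter genes.

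**Figure D5:**
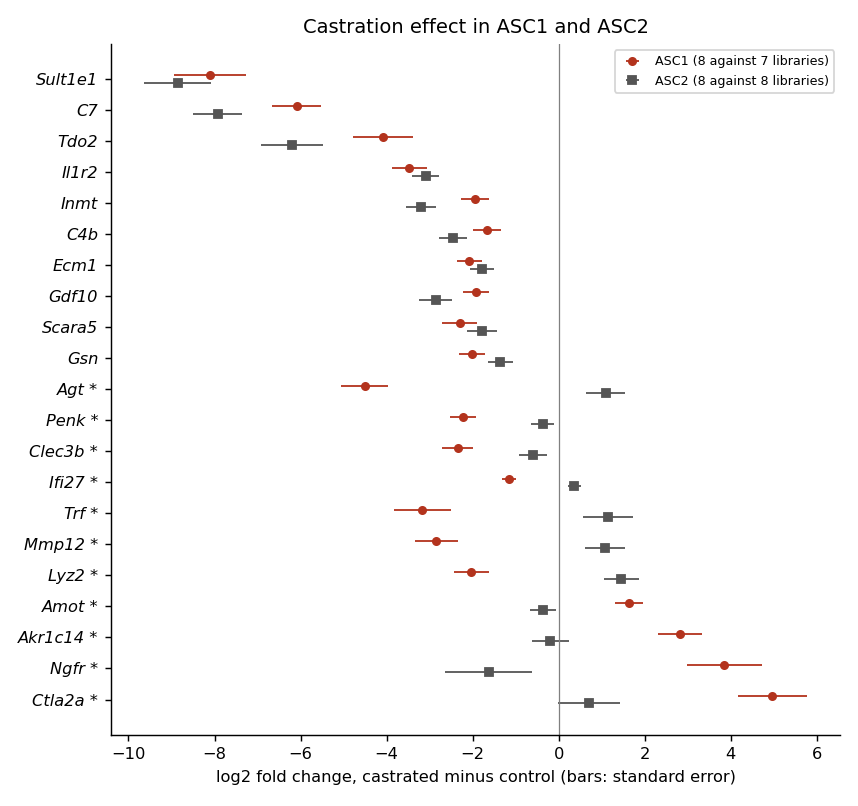
Points give the log2 fold change of 21 genes in ASC1 (red circles, 8 against 7 libraries) and ASC2 (grey squares, 8 against 8), bars are standard errors, and an asterisk marks an adjusted p below 0.05 for the difference between both. Sult1e1, whose points rest on castrated groups without a read, C7 and Il1r2 are low in both, whereas Agt, Penk and Clec3b are low in ASC1.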

How the data were processed

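RNA from sorted ASC was sequenced by Smart-seq3, and the authors trimmed adapters and quantified transcripts with Salmon 1.9.0. The deposited values are estimated counts per gene (15% of them not whole), which were rounded. Per the labels, the build was GRCm39. Symbols were taken from an annotation of build GRCm38 by gene ID, for 12371 of 12464 genes tested, and no coordinates were converted.

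Genes were kept where more than 3 of 58 libraries held 5 reads or more, and tested with edgeR 4.0.16 (R 4.3.3), by the quasi-likelihood test with TMM scaling and 1 coefficient for each of 8 groups, so that all groups shared the estimate of spread (biological coefficient of variation 35.6%). P-values were adjusted by Benjamini-Hochberg over all genes tested, with a threshold of 0.05. CPM values are on TMM-scaled library sizes, and plots use a pseudocount of 1 CPM. The effect of castration in ASC2 and the difference between ASC2 and ASC1 came from the same fit. A fit of the 15 libraries in 4 subsets (label by at least 5 Tcf21 reads, or none) was chosen after seeing the data. Folds against a group without reads used 3 counts over that group, which covers counting error only.

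Named genes were the 12 with the largest change in each direction among called genes of at least 10 CPM without overlap between groups, up to 4 called members per list and direction of at least 5 CPM with the members defining the list or the sort, the sex-chromosome genes, and the 8 with the largest difference from ASC2 in each direction. Members and lists were chosen with earlier results of these data known. Alternatives were RLE scaling, total counts, other filters, robust estimation, DESeq2 1.42.0, limma 3.58.1 (voom), fewer groups in the fit and each library left out. On simulated counts for this comparison in 12464 genes, 37 of 100 genes changed by 2-fold and 72 of 100 changed by 4-fold were recovered, with 6 false calls. The simulated libraries did not differ in Tcf21, Xist, Y genes or macrophage genes as the real ones did. The false calls therefore do not cover calls that come from such differences. No 2 libraries of a group agreed within sampling noise. Cultured stromal cells of the same plate were not analysed here, and a few genes are not reported here.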

Additional observations from a re-analysis of the deposited data

Results flagged for a closer look

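In 10 of 182 tests, of a gene or of total reads within a group, 1 library stood apart from the rest of its group. The measure was the share of the group's range that lay between it and its nearest neighbour, for genes on a log2 CPM scale. Chance gives about 1 in 20 such cases for independent, normally distributed values. The genes here share their libraries and some hold many zeros, so that rate is only a rough guide. In the castrated group these were Tdo2 (share 1.00, N2, the one library with reads), Il1r2 (0.636, K2) and Apod (0.595, O2). In the control group they were Map2k1 (0.694), Aldh1a3 (0.605) and Cxcl13 (0.645) in G2, Pecam1 (0.589) in F2, and Col8a2, Tsix and Gm29253 (each 1.00) in E2, which was the one control library with reads of these 3 genes.

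For 39 of 90 named genes, the effect of castration differed between ASC2 and ASC1 by the test of the difference (edgeR). The values are log2 fold changes in ASC2 minus those in ASC1. Among genes of macrophages and other leukocytes they were positive, for Lat2 (5.32), Myo1f (4.92), Dok2 (4.71), Tbxas1 (4.69), Cd300a (4.66), Mmp12 (3.92), Lyz2 (3.49), Cfp (3.16), Ptprc (3.03), Ccl9 (2.90), Cd68 (2.87), Adgre1 (2.79) and Ccl6 (2.39). The sex-chromosome genes were Ddx3y (4.46), Eif2s3y (3.93) and Xist (-5.21), in groups whose sex-chromosome content differed between ASC1 and ASC2. Positive values were also found for Agt (5.60), Trf (4.31), Cd36 (3.22), Penk (1.86), Clec3b (1.75), Id2 (1.56), Ifi27 (1.52) and Ndufb8 (0.84). Values were negative for Ngfr (-5.48), Azin2 (-3.45), Emx2os (-2.81), Lipg (-4.27), Amot (-2.0), Cdh11 (-1.50), Dpp4 (-2.87), Akr1c14 (-3.02), Spon2 (-1.36), Gucy1a1 (-4.86), Hoxd10 (-6.87), Gm29253 (-9.14), Cdh3 (-6.98), Cilp (-4.35) and Ctla2a (-4.27).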

How the results depend on the processing

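The count of 294 genes was within 1.5 times of itself with RLE scaling, total counts, other filters, robust estimation, DESeq2 and limma voom (204 to 407). It was 573 (286 higher, 287 lower) with the 15 libraries alone, and 205 genes were higher with the ASC1 libraries alone. With limma voom 96 genes were lower. After seeing the data, a term for Tcf21 gave 830 (321 higher, 509 lower), libraries with Tcf21 gave 1566 (698 and 868), and those without gave 28 (2 and 26). Without the 4 control libraries that hold Xist 267 genes were lower, and without I2 and J2 the count was 565 (287 higher, 278 lower). The causes were not tested. Leaving out 1 library gave 167 to 378 genes, 78 to 195 higher and 81 to 186 lower, and 201 to 371 for the difference between ASC2 and ASC1. That difference (301) was 454 without a filter and 193 with limma voom (92 positive, 101 negative). Of 82 named genes called, 48 stayed called whichever library was left out. Directions reversed for 13 named genes, all in libraries without Tcf21, where the log2 values were -0.98 (Heph), -0.11 (Spon2), -0.13 (Gucy1a1), -1.55 (Col8a2), 0.22 (Mmp12), -0.17 (Frzb), 0.12 (Ccl6 and Ccl9), -1.56 (Msln), 0.04 (Lyz2), 0.14 (Cd68), 0.67 (Cd300a) and -0.82 (Cdh3). The comparison without Tcf21 rests on 2 castrated libraries, and total counts went down to 235098 in 1 castrated library.

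No paired analysis was possible because the castrated and control libraries share no plate row letter. For the difference between ASC2 and ASC1, the row letter as a replicate block gave 218 genes. Of 15 pairs of libraries with one letter, 4 deviated together (correlation above 0.1, range -0.27 to 0.28) and 5 correlated best with their own letter. The correlations were 0.05 (B) to 0.28 (F) in the controls and -0.27 (I) to 0.07 (P) in the castrated libraries. Correlations this weak cannot decide whether the letters pair the samples.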
